A study of Mus musculus with 9 samples.

Results

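Serpina3 genes encode secreted and intracellular inhibitors of serine and cysteine proteases and lie side by side on mouse chromosome 12. The 6 genes described here, Serpina3n, Serpina3g, Serpina3f, Serpina3m, Serpina3k and Serpina3c, were found by symbol among the 21936 protein-coding rows of a normalized count table. The family was picked because Serpina3n stood higher than sham at both times after ligation, so the Serpina3n differences from sham are given as a description with no test. The question was whether its neighbours at the locus moved with it.

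RNA was sequenced from lymphatic endothelial cells of mouse liver, sorted from IL7GFP/knock-in reporter mice, which carry green fluorescent protein at the Il7 locus. All 3 groups share that allele. They were sham surgery, bile duct ligation (BDL, which stops bile from leaving the liver) examined at 2 weeks, and BDL examined at 4 weeks, with 3 libraries each. The sources used here do not give strain, age, the sort gate, the time from sham surgery to collection or any pooling of animals. The p-values therefore measure only the spread between these libraries.

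Serpins trap a protease that cuts an exposed loop near their carboxyl end, and the sequence of that loop sets which proteases are caught. People have a single gene, SERPINA3, where mice have a cluster. In mice Serpina3n is an acute-phase protein that inhibits elastase and granzyme B, Serpina3g inhibits lysosomal cathepsins inside leukocytes and is induced by interferon-gamma, and Serpina3k and Serpina3m are hepatocyte products.

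The coding sequences were compared window by window. Of 154 windows of 60 bases that aligned without a gap in all 6 members (GENCODE M21 transcripts, GRCm38, MAFFT), the least alike was bases 1090 to 1149 of the Serpina3n coding sequence, with a mean pairwise identity of 72.6% against a median of 85.3% over the windows. That window codes for the hinge and part of the reactive loop. Near the end of the coding sequence, bases 1195 to 1254 were almost as unlike, at 73.8%. The windows without a gap began at base 607, and the Serpina3g coding sequence used has 744 bases against 1254 in Serpina3n. Earlier bases were not compared by window. The 6 stretches of the least alike window are printed, with capitals marking bases unlike Serpina3n in the alignment. All are on chromosome 12.
Serpina3n: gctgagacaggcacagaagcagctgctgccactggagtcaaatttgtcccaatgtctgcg
Serpina3f: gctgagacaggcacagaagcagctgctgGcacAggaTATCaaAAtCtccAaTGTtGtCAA
Serpina3g: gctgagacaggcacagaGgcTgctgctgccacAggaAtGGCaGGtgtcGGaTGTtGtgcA
Serpina3k: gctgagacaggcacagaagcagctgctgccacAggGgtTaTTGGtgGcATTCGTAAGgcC
Serpina3m: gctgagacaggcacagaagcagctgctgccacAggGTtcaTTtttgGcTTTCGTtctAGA
Serpina3c: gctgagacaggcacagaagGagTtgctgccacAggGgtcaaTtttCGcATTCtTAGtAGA
The differing positions numbered 15 in Serpina3m, 16 in Serpina3g, 17 each in Serpina3f and Serpina3c, and 18 in Serpina3k, most of them in the second part of the window. Over the aligned coding bases Serpina3n was 82.9% to 85.5% identical to the other 5, with only 648 bases aligned for Serpina3g.

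That likeness bears on counting. Serpina3k and Serpina3m were the closest pair (91.8% identity, with an identical run of 154 bases), and their annotated exons share 60 bases. Transcripts of Serpina3f and Serpina3g share an identical run of 119 bases. The longest run Serpina3n shares with another member is 100 bases, with Serpina3g. The sources used here do not say how reads that match several genes were counted, so the split within the first 2 pairs is uncertain.

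The upstream sequences of the family were compared as well, since Serpina3n differed so much from its neighbours. The 250 bases before a RefSeq start are printed for 4 members (RefSeq, GRCm38.p6; for Serpina3f the first of 2 starts), with capitals marking matches to any of 5 motifs on either strand. These were TTCNNNGAA (the STAT dimer site), TTGCNNAA (C/EBP), GGG and CC parted by any 5 bases (NF-kB), 2 GAAA parted by any 2 bases (the interferon-stimulated response element) and TGTTCT (the glucocorticoid receptor half-site), and matches of different motifs or strands may overlap.
Serpina3n: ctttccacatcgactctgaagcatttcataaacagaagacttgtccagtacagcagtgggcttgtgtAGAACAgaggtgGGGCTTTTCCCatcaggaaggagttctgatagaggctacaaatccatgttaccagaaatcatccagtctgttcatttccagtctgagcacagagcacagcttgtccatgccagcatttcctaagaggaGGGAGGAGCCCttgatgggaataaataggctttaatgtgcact
Serpina3c: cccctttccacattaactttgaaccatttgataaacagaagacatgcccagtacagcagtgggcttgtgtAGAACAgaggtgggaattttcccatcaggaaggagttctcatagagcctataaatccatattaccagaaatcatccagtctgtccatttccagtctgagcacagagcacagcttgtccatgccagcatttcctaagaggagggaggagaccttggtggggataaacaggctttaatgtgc
Serpina3f: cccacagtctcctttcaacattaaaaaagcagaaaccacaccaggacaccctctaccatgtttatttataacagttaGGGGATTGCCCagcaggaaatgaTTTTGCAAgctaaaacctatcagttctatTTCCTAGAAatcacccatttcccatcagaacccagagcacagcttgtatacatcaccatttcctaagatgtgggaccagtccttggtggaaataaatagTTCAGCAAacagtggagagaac
Serpina3g: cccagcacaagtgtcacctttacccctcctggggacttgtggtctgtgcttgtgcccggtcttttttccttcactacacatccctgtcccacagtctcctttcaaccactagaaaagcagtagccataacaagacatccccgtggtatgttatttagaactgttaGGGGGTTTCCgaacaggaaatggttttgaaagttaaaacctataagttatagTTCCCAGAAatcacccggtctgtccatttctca
These lie at chr12:104406458-104406707 (plus strand), chr12:104153873-104154122 (minus strand), chr12:104214294-104214543 (plus strand) and chr12:104235897-104236146 (plus strand). The windows of Serpina3n and Serpina3c were 92.7% identical over 247 aligned bases, the highest of all pairs of the family's windows, while those of Serpina3n and Serpina3g were 59.1% identical over 159.

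Serpina3f and Serpina3g each held 1 match to the STAT letters, which occur in 7.02% of 32851 RefSeq promoter windows of the same length. The Serpina3n and Serpina3c windows held none. The window of Serpina3i, a Serpina3 gene that is no member, also held 1 STAT match, with 3 NF-kB matches. Its log2 differences from sham, given below, were 1.33 and 1.04 (SE 0.99 each). Sham replicate 2, the library with the fewest reads, had 0 reads of Serpina3i. Without that library the Serpina3i sham mean was 12.5 normalized counts, against 13.2 at 2 weeks and 11.3 at 4 weeks. The C/EBP letters occurred 2 times in Serpina3f (9.56% of all windows hold a match). The NF-kB letters, present in 45.8% of all windows, matched in the printed windows of Serpina3n, Serpina3f and Serpina3g. The half-site, present in 16.1%, matched 1 time each in the printed windows of Serpina3n and Serpina3c, and the response element (2.98%) matched in none of the 4. RefSeq holds a second start for Serpina3f (window chr12:104214383-104214632), where the NF-kB letters matched 0 times, the half-site 1 time and the other motifs as in the printed window. A match is a description of the letters only.

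Sham replicate 2 stood apart. It held 592419 recovered reads, against 2259239 to 5314381 in the other 8 libraries, and its median correlation with the other libraries across genes was 0.774, against 0.888 to 0.928. The upper limit behind a 0, taken as 3 reads, was 15.8 normalized counts there and 1.77 to 3.69 elsewhere (counting error only). The 13 rows of 12 lymphatic endothelial markers summed to 7113 in it and to 17006 to 49156 in the other 8. The labelled cell type was thus represented by its markers, though Ccl21a, on that list, had 1 read in 1 of its rows and 0 in the other. Markers of hepatocytes and macrophages were present in every library. The 14 macrophage markers summed to 81224 in sham replicate 2. Their sum lay above the lymphatic sum in sham replicates 1 and 2, 2-week replicates 1 and 3 and 4-week replicate 1, and below it elsewhere. Sums over different lists do not measure shares of cells.

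Serpina3n (ENSMUSG00000021091, chr12:104406729-104414329 of GRCm38, plus strand, 5 exons) stood at 30.3, 73.6 and 53.0 normalized counts in sham replicates 1, 2 and 3. It stood at 919, 1532 and 1220.4 at 2 weeks and at 805, 1839 and 1800.1 at 4 weeks. Every ligated library lay far above every sham library, and the lowest ligated value was that of 4-week replicate 1. The means were 52.3 ± 21.7, 1224 ± 306 and 1481 ± 586 (SD, n = 3), ratios of 23.4 at 2 weeks and 28.3 at 4 weeks to sham. On the log2(normalized count + 1) scale the differences were 4.58 ± 0.41 and 4.79 ± 0.41 (SE). Among all 11809 tested genes, groups did not overlap with the ligated side higher for 10.2% at 2 weeks and 8.6% at 4 weeks; since the gene was picked on these contrasts nothing is read from that. Sham rested on 33, 14 and 68 reads, ligation on 1025 to 2345.

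Between 4 and 2 weeks, a contrast not used to pick the gene, the Serpina3n groups overlapped (over all tested genes these 2 times did not overlap for 9.4%, 4.34% higher and 5.06% lower at 4 weeks). The log2 difference was 0.21 ± 0.41 (limma, adjusted p = 0.999993, n = 3 per group), with 4-week replicate 1 below all 2-week libraries and the other 2 above them. In this contrast 0 of 11809 genes passed in limma (an adjusted p below 0.05 is called passing throughout), 475 had an unadjusted p below 0.05, and edgeR called 0 and DESeq2 76.

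**Figure D1:**
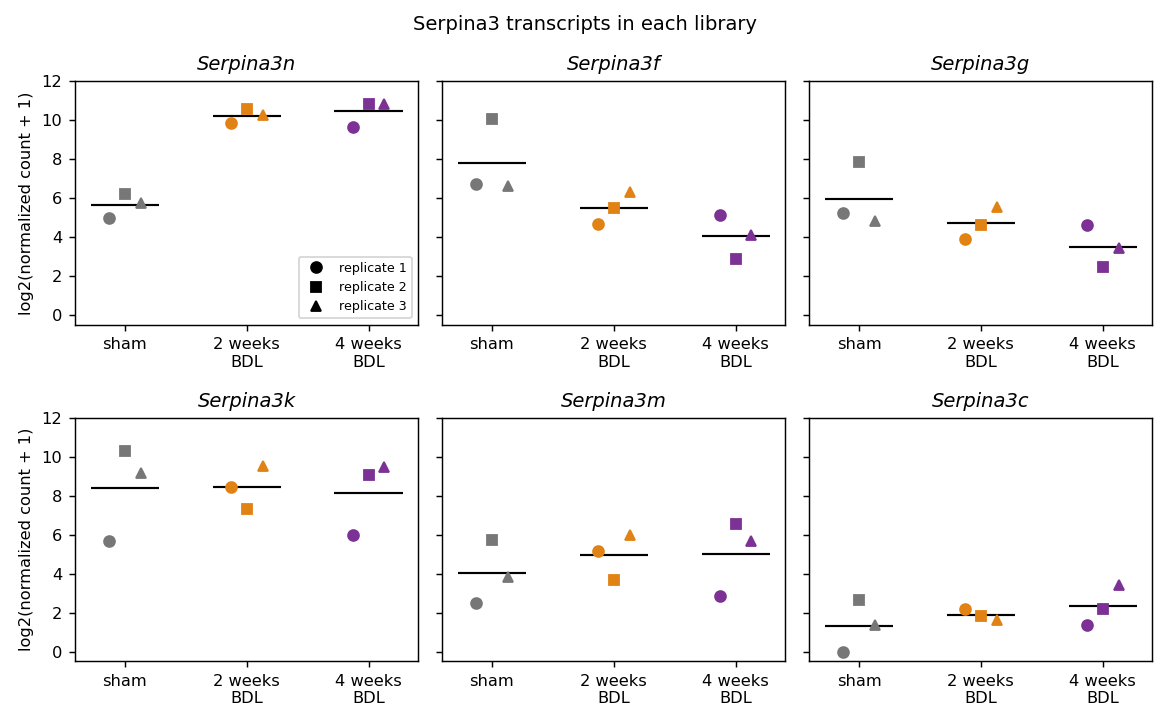
Levels of the 6 Serpina3 members in each library, as log2(normalized count + 1) on the vertical axis, by group; points are libraries (symbols give the replicate number) and lines the group means. Serpina3n sits between 4.97 and 6.22 in sham and between 9.65 and 10.8 after ligation, while Serpina3f lies lower after ligation and Serpina3k spreads widely within each group.

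None of the other members of the family passed in limma in any contrast. Of the 5 other members, 4 averaged at least 10 normalized counts and were tested, so that the count was 0 of 4 at 2 weeks, at 4 weeks and between them. Over all tested genes 0.0169% passed at 2 weeks, 1.2% at 4 weeks and 0% between them. At an unadjusted p below 0.05 the counts were 1, 2 and 0 of 4, and each of these was lower after ligation. Over all 11809 tested genes 1010, 1621 and 475 had an unadjusted p below 0.05 in the same contrasts. These totals are also the background for the unadjusted counts of the gene lists below. edgeR called 0 of 4 in every contrast and DESeq2 called 1 at 4 weeks, Serpina3g, also lower.

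Serpina3f (ENSMUSG00000066363, chr12:104214544-104221129, plus strand) lies beside Serpina3g. It stood at 105, 1072 and 97.4 normalized counts in sham, at 24.2, 43.1 and 79.2 at 2 weeks, and at 34.5, 6.27 and 16.0 at 4 weeks. All 6 ligated libraries lay below all 3 sham libraries, with sham replicate 2 about an order of magnitude above the other sham libraries. Groups failed to overlap on the lower side for 7.71% of all tested genes at 2 weeks and 8.39% at 4 weeks. The log2 difference was −2.33 ± 0.92 at 2 weeks (limma, adjusted p = 0.521) and −3.77 ± 0.92 at 4 weeks (adjusted p = 0.0842), neither passing. Without sham replicate 2 it was −1.20 and −2.64, neither passing (adjusted p = 0.562 and 0.0950 in limma). With 4-week replicate 1 left out as well, a choice made after the data had been seen, the 4-week difference was −3.20 and passed (limma, adjusted p = 0.0212).

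Serpina3g (ENSMUSG00000041481, chr12:104236245-104241939, plus strand), the cathepsin inhibitor of leukocytes, had the same order. It stood at 36.7, 226 and 27.3 in sham, at 14.1, 23.5 and 46.0 at 2 weeks, and at 23.5, 4.48 and 9.84 at 4 weeks. The 2-week libraries overlapped sham through replicate 3, and the 4-week libraries all lay below sham. The log2 difference was −1.26 ± 0.83 at 2 weeks (limma, adjusted p = 0.685) and −2.46 ± 0.83 at 4 weeks (adjusted p = 0.227); the latter passed in DESeq2 (−2.91, adjusted p = 0.0171). Without sham replicate 2 the differences were −0.33 and −1.52 in limma (adjusted p = 0.890 and 0.339). Reads of this gene numbered 118, 128 and 43 over the 3 groups.

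Between 4 and 2 weeks neither Serpina3f nor Serpina3g passed. The log2 difference was −1.45 ± 0.92 for Serpina3f and −1.19 ± 0.83 for Serpina3g (limma, adjusted p = 0.999993 for both). Per kilobase of exon Serpina3f was 2.64 to 4.36 times Serpina3g in sham, 1.57 to 1.69 times at 2 weeks and 1.29 to 1.49 times at 4 weeks, the highest ratio being that of sham replicate 2.

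Serpina3k (ENSMUSG00000058207, chr12:104338486-104346144, plus strand), a plasma inhibitor made by hepatocytes, varied within groups far more than between them. It stood at 49.5, 1272 and 581 in sham, at 349, 157 and 730.4 at 2 weeks, and at 61.2, 530.1 and 711 at 4 weeks. All 3 groups overlapped. The log2 difference from sham was 0.04 ± 1.22 at 2 weeks and −0.22 ± 1.22 at 4 weeks (limma, adjusted p = 0.994 and 0.953), so that a sizeable change in either direction was not detectable with these libraries. Its sign changed with several single libraries left out.

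Serpina3m (ENSMUSG00000079012, chr12:104338486-104394257, plus strand), also of hepatocytes, stood at 4.59, 52.6 and 13.2 in sham, at 35.4, 11.8 and 62.3 at 2 weeks, and at 6.28, 93.1 and 50.4 at 4 weeks. Its groups overlapped too. The log2 difference was 0.93 ± 1.07 at 2 weeks and 1.02 ± 1.07 at 4 weeks (limma, adjusted p = 0.816 and 0.720). Without sham replicate 2 both differences were larger, at 1.79 and 1.88, and neither passed.

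Serpina3c (ENSMUSG00000066361, chr12:104146382-104153870, minus strand), whose upstream window is the most like that of Serpina3n, was near the limit of detection. It had 0, 1 and 2 reads in sham, 6, 4 and 3 at 2 weeks and 2, 4 and 8 at 4 weeks, a mean below 10 normalized counts, so it was not tested. Of the 4 Serpina3 genes that are no members, Serpina3a, Serpina3b and Serpina3j had 7, 22 and 8 reads over all libraries. Serpina3i, with 126 reads, gave log2 differences of 1.33 ± 0.99 and 1.04 ± 0.99 from sham without passing (limma, adjusted p = 0.713 and 0.687).

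Levels of different members were set side by side per kilobase of exon. In sham the order was Serpina3k (308 normalized counts per kilobase), Serpina3f (186), Serpina3g (45.9), Serpina3n (25.3), Serpina3m (13.7) and Serpina3c (1.03), and each neighbouring pair down to Serpina3m overlapped between libraries. At 2 weeks Serpina3n came first at 593, ahead of Serpina3k at 201 and Serpina3f at 21.3, with no overlap between these neighbours. Serpina3m (21.2) and Serpina3g (13.3) overlapped Serpina3f, and Serpina3c (1.23) lay below them. At 4 weeks Serpina3n, at 718, again lay above every Serpina3k library (mean 211), while Serpina3k, Serpina3m (29.1), Serpina3f (8.27), Serpina3g (6.0) and Serpina3c (2.26) each overlapped the next. Among 11804 tested genes with an annotated length Serpina3n came at rank 4995 by its sham level, at rank 147 by its 2-week level and at rank 114 by its 4-week level.

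Shares within the family describe the same values, including the contrast that picked Serpina3n. Serpina3n made up 13.3%, 2.82% and 6.73% of the summed Serpina3 level per kilobase in sham, 67.3%, 86.0% and 56.5% at 2 weeks, and 86.0%, 73.2% and 68.1% at 4 weeks. Serpina3f made up 41.9%, 37.1% and 11.2% in sham and at most 3.33% in any ligated library. Per kilobase Serpina3n was 0.0761 to 0.604 times Serpina3f in sham, 17.1 to 42.2 times at 2 weeks and 25.8 to 326 times at 4 weeks.

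**Figure D2:**
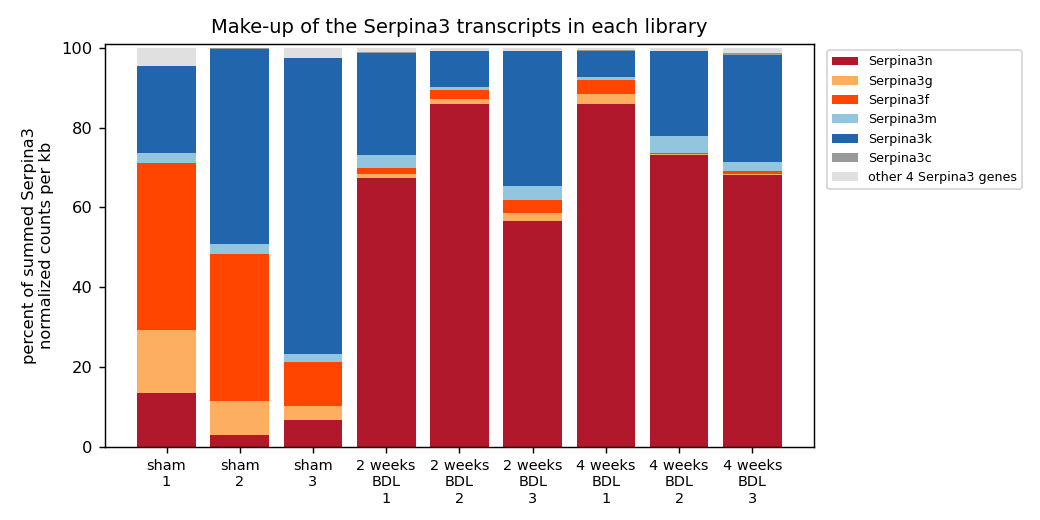
Share of each Serpina3 gene in the summed Serpina3 normalized counts per kilobase of exon (vertical axis, percent), one bar per library. Serpina3n is at most 13.3% of the bar in sham and at least 56.5% after ligation, and the Serpina3f segment is at most 3.33% after ligation.

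Of the other genes around Serpina3n 1 passed. Within 1 Mb on either side of Serpina3n the table held 34 other genes, 14 of them tested; 0 passed at 2 weeks and 1 passed at 4 weeks, which was lower (over all genes 0.669% passed lower and 0.533% higher). Of the 14, 3 had an unadjusted p below 0.05 at each time, edgeR called 0 and 1, and DESeq2 called 2 and 3. The median log2 difference of the 14 was −0.29 at 2 weeks and −0.09 at 4 weeks, against 0.07 and 0.07 over all tested genes. The 1 gene was Ifi27l2a, an interferon-induced gene whose start lies 963 kb from that of Serpina3n, near the edge of the window. It stood at 89.0, 515 and 86.5 in sham, 27.7, 17.6 and 12.2 at 2 weeks and 7.85, 12.5 and 9.84 at 4 weeks. It fell by 3.87 on the log2 scale at 4 weeks (SE 0.65; limma, adjusted p = 0.0235), and passed in 6 of 9 fits that left out 1 library, the exceptions being the 3 without a 4-week library. Dicer1, the nearest tested gene beyond Serpina3n, was at 242 ± 94.6, 343 ± 25.7 and 308 ± 70.5 (SD, n = 3) and did not pass.

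The alpha-1-antitrypsin genes of the same cluster are hepatocyte products. Of 17 other serpins within the window 7 were tested and 0 passed at either time in limma or at an unadjusted p below 0.05, with medians of −0.05 and 0.79; DESeq2 called 1 at 4 weeks and edgeR none. Serpina1e, at 14.7, 1787 and 724 in sham and at 11.1 to 90.0 in the 6 ligated libraries, had the lowest p among them (the Serpina1 genes are near-identical copies, so their split is uncertain), with −3.02 ± 1.49 at 2 weeks and −3.20 ± 1.49 at 4 weeks (limma, adjusted p = 0.604 and 0.383). Its sham replicate 1 lay within the ligated range.

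**Figure D3:**
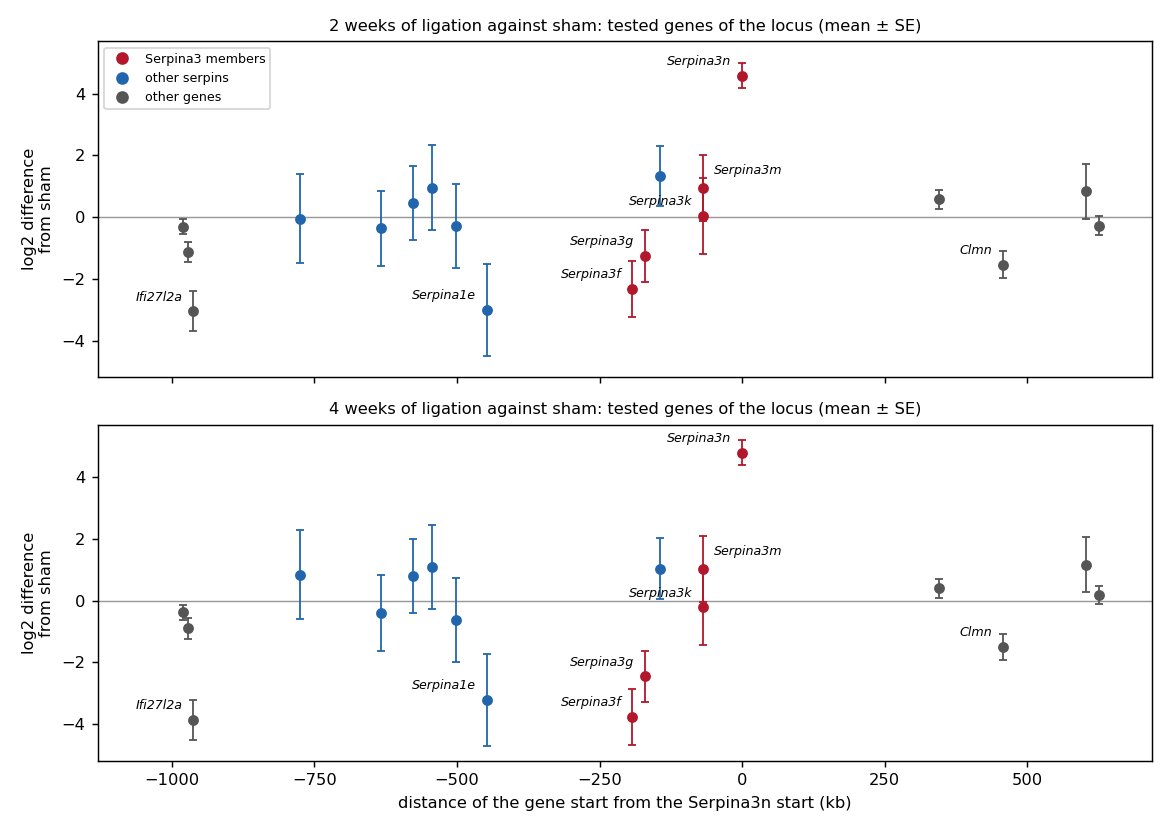
Log2 difference from sham (vertical axis, mean ± SE, log2(normalized count + 1)) of the tested genes within 1 Mb of Serpina3n against the distance of each gene's start from that of Serpina3n in kilobases, at 2 weeks (top) and 4 weeks (bottom) of ligation. Serpina3n lies alone at 4.58 and 4.79, and Serpina3f at −2.33 and −3.77 is the lowest of the family.

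The genes most like each member across the 9 libraries differed between members. Likeness was Pearson's r of log2(normalized count + 1) among 7748 genes with a mean of at least 50, given as a description, since the libraries share groups and depth. Of the 8 genes most like it, those named for Serpina3n were Slit3 (r = 0.967, Spearman's rho 0.883), a guidance ligand, Slc16a3, a lactate transporter, Gpx3, Rbm3, Cenpc1, St3gal1 and Xylt2 (r = 0.918). After removal of group means r with Slit3 was 0.68 and with Gpx3 −0.01, so that for several of them the likeness lay between groups. Slit3 stood at 5.98 in sham and at 60.9 and 97.4 after ligation.

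For Serpina3f the 8 genes were Tap1 (r = 0.979, rho 0.933), which carries peptides to MHC class I, Tlr9, H2-T23, Irgm1, Gbp4, D16Ertd472e, Dnase1l3 and Ly6a, several of them interferon-induced. Here r of the deviations from group means was 0.963 with Tap1 and at least 0.877 with all 8. Sham replicate 2 weighs heavily in these deviations. On the log2 scale Serpina3f stood at 10.1 there and at 6.73 and 6.62 in sham replicates 1 and 3. The r without that library was not computed. Serpina3g, below the level needed to be ranked, had r = 0.982 with Serpina3f. For Serpina3k they were Serpina1d (r = 0.967), Serpina1c, Plg, Mug1, Apoa2, H2-Q10, F5 and Alb, most of them plasma proteins made by hepatocytes, with r of at least 0.954 after removal of group means. Serpina3n had r = 0.136 with Serpina3k and r = −0.718 with Serpina3f.

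The levels of 18 hepatocyte markers moved with Serpina3k. Their summed level was 3489, 22737 and 12822 in sham, 15664, 7373 and 15630 at 2 weeks and 5945, 30694 and 20170 at 4 weeks, none of the 18 being at 0 in any library. The libraries lowest in the markers, sham replicate 1, 4-week replicate 1 and 2-week replicate 2, were the 3 lowest for Serpina3k. Per kilobase Serpina3k was 7.97% to 17.2% of Alb in sham, 8.71% to 16.5% at 2 weeks and 5.85% to 11.6% at 4 weeks. In bulk samples fewer cells of a type and less RNA per cell cannot be told apart.

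The order of Serpina3n against the marker sum depended on the group. Within sham and within the 4-week group the libraries had the same order in Serpina3n as in the marker sum, and within the 2-week group the lowest sum went with the highest Serpina3n. After removal of group means Serpina3n had r = 0.800 with Serpina3k over the 9 libraries. The part of hepatocyte RNA in the Serpina3n level was not tested. Per kilobase Serpina3n was 0.993% to 4.86% of Alb in sham and 20.2% to 152% after ligation.

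**Figure D4:**
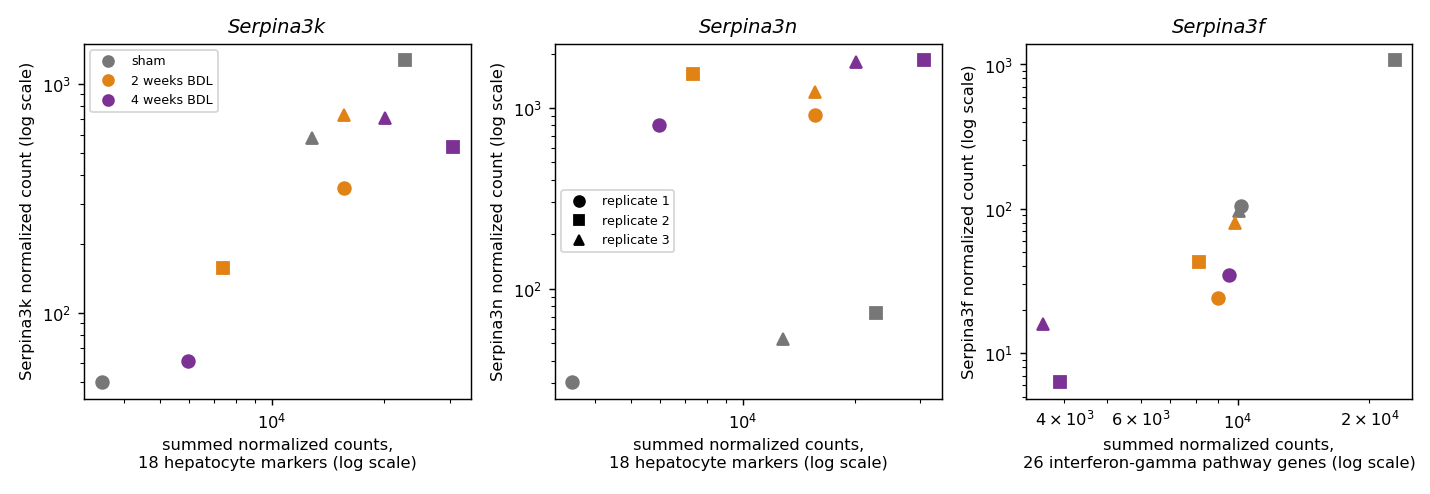
Normalized counts of Serpina3k and Serpina3n against the summed normalized counts of 18 hepatocyte markers, and of Serpina3f against those of 26 interferon-gamma pathway genes, all on log scales; points are libraries, colours groups and symbols replicate numbers. Serpina3k is lowest in each group where the marker sum is lowest, Serpina3n separates into a sham band below 74 and a ligated band above 800, and Serpina3f is highest in sham replicate 2, where the interferon sum is 22869.

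Summed markers of another cell type differed beside Serpina3n, though no single marker passed in limma. The 15 stellate cell and fibroblast markers summed to 1798 to 7803 in sham, 8228 to 13653 at 2 weeks and 8834 to 15822 at 4 weeks, with no overlap between sham and ligation; much of this was Reln, which is also on the lymphatic list. Without Reln the other 14 summed to 430 to 1104 in sham, 1344 to 4155 at 2 weeks and 1057 to 3272 at 4 weeks, where 4-week replicate 1 then lay within the sham range. Of the 14 tested markers 13 had a positive log2 difference at each time and 0 passed (limma, lowest adjusted p = 0.182 and 0.0549), with medians of 1.41 and 1.73. At each time 6 had an unadjusted p below 0.05, edgeR called 0 and 1, and DESeq2 called 4 and 5. Without sham replicate 2 limma called 5 at 4 weeks, where 173 of all 11740 tested genes passed. Lum and Cygb were each at 0 in 1 library. The part of these cells in the Serpina3n level was not tested.

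Genes of the interferon-gamma pathway, which induces Serpina3g in mouse macrophages, had mostly negative differences after ligation. Of 26 listed genes 24 were tested, 22 of them with a negative log2 difference at 2 weeks and 23 at 4 weeks. At 2 weeks 0 passed, and at 4 weeks 8 passed lower and 0 higher, against 0.669% and 0.533% of all genes, with medians of −0.70 and −1.93. At 2 weeks 5 had an unadjusted p below 0.05, edgeR called 0 and DESeq2 called 2, and at 4 weeks edgeR called 8 and DESeq2 15. The 4-week count ran from 2, without 4-week replicate 3, to 9 with single libraries left out. Gbp2b stood at 249, 1209 and 182 in sham, 272, 114 and 132 at 2 weeks and 14.1, 8.95 and 6.15 at 4 weeks, so that the 4-week libraries all lay below the others. Gbp2b, Ciita and Igtp fell at 4 weeks, with log2 differences of −5.22, −3.01 and −2.67 (limma, adjusted p = 0.0105 for each); Gbp2b and Igtp did not pass without 4-week replicate 3 (adjusted p = 0.0614 for both). Ifng itself had 0, 1 and 3 reads in the 3 groups. The summed level of the 26 genes was 10058 to 22869 in sham, 8134 to 9858 at 2 weeks and 3579 to 9533 at 4 weeks.

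T and NK cells, in which Serpina3g is known, left few reads. Of 12 listed markers 11 had rows and 1 was tested, Cd4, which fell by 3.06 on the log2 scale at 4 weeks (limma, adjusted p = 0.0176; 0.0575 without sham replicate 3) and has 574 reads over all libraries. Nkg7 was at 0 in every library, and Cd3e, Cd3d and Cd3g had 13, 17 and 13 reads in all. The summed level was 133 to 173 in sham, 46.0 to 59.6 at 2 weeks and 32.2 to 61.5 at 4 weeks, and most of the sham sum was Cd4. Without Cd4 the other 10 summed to 15.8 to 18.7, 6.48 to 21.0 and 7.85 to 55.4 in the same order, and the groups overlapped.

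At 4 weeks macrophage markers fell in part beside Serpina3f and Serpina3g. Of 14 tested, 0 passed at 2 weeks (2 at an unadjusted p below 0.05, 0 in edgeR and 1 in DESeq2) and 2 passed at 4 weeks, both lower (0.669% of all genes), with 12 of 14 differences negative and a median of −0.88; edgeR called 2 and DESeq2 5. The 2 were the Kupffer cell receptors Timd4 and Clec4f, with log2 differences of −4.02 and −3.30 (limma, adjusted p = 0.0105 and 0.0268). Without 4-week replicate 3 limma called 0. At 2 weeks 6 of the differences were positive and 8 negative, with a median of −0.10. Marco and Cd163 then had the lowest p and were higher, at 8061 and 6162 against 1671 and 2036 in sham. Neither passed (limma, adjusted p = 0.336 and 0.435). The 14 summed to 34679 to 81224 in sham, 37303 to 83477 at 2 weeks and 19419 to 43419 at 4 weeks, overlapping between groups. Within sham the libraries had the same order in this sum as in Serpina3f, both highest in replicate 2. Within the 2-week group the highest sum, in replicate 1, went with the lowest Serpina3f (24.2). At 4 weeks replicate 1 was highest in both, and replicates 2 and 3 were in opposite order. The part of these cells in the Serpina3f and Serpina3g levels was not tested.

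The acute-phase response, to which Serpina3n belongs, was described with 28 listed genes. Of 26 tested 22 had a positive log2 difference at 2 weeks and 23 at 4 weeks, with medians of 1.07 and 1.40 against 0.07 and 0.07 over all genes, and 0 passed at either time (0.0169% and 0.533% of all genes passed higher). At an unadjusted p below 0.05 there were 2 and 6, edgeR called 0 and 1, and DESeq2 called 1 and 2. Without sham replicate 2 limma called 2 at 4 weeks, where 173 of all 11740 tested genes passed. With 4-week replicate 1 left out as well, a choice made after the data had been seen, limma called 9, where 467 of all 11837 passed. Hamp, the iron hormone hepcidin, had the lowest p at both times. It stood at 3.67, 15.8 and 11.7 in sham, 140, 48.3 and 115 at 2 weeks and 32.2, 367 and 265 at 4 weeks, without overlap between sham and ligation (limma, adjusted p = 0.316 and 0.0651). Itih3, an inter-alpha-trypsin inhibitor chain, stood at 105 ± 86.0 in sham and 408 ± 189 at 2 weeks (SD, n = 3; adjusted p = 0.481 in limma). Most listed genes are hepatocyte products, and the summed hepatocyte markers given above overlapped between the groups.

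Signals known to induce Serpina3n in mice were examined with 28 genes of the interleukin-6, STAT3 and glucocorticoid pathways, of which 27 were tested. At 2 weeks 0 passed (4 at an unadjusted p below 0.05, 0 in edgeR and 1 in DESeq2). At 4 weeks 1 passed, higher (0.533% of all genes), 7 had an unadjusted p below 0.05, edgeR called 1 and DESeq2 3. The medians were 0.11 and 0.04 at the 2 times. It was Osm, the cytokine oncostatin M, at 24.8, 57.8 and 58.4 in sham, 123, 109 and 57.5 at 2 weeks and 347, 219 and 148 at 4 weeks (log2 difference at 4 weeks 2.33 ± 0.45, limma, adjusted p = 0.0398). All 4-week libraries lay above all others, but the gene passed in only 1 of 9 fits that left out 1 library (adjusted p up to 0.118). Il6 stood at 656 ± 129, 1268 ± 232 and 790 ± 963, Socs3, a target of STAT3, at 1757 ± 984, 1294 ± 271 and 2084 ± 1613, and Stat3 at 986 ± 84.4, 1070.4 ± 199 and 1279 ± 533 (SD, n = 3). Fkbp5 and Tsc22d3, targets of the glucocorticoid receptor, had the lowest p at 2 weeks. Their sham means were 338 and 257 and their 2-week means 1414 and 551, and neither passed (limma, adjusted p = 0.168 and 0.421).

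Granule proteases that Serpina3 proteins are known to bind were scarce. Ctsg, encoding cathepsin G, had 1 read over all libraries, Elane, neutrophil elastase, 1, 7 and 4 reads in the 3 groups, and Gzmb, granzyme B, 0, 3 and 14. The full list of 28 genes was wider than the serine and cysteine proteases that the family inhibits. It also held perforin (Prf1) and the metalloproteases Mmp2 and Mmp9. Of the 28 genes 12 were tested. At 2 weeks 0 passed in limma (3 at an unadjusted p below 0.05, 0 in edgeR and 2 in DESeq2). At 4 weeks 1 passed, Mmp2, a gelatinase of fibroblasts. It rose from 16.5 ± 5.43 in sham to 94.1 ± 13.5 (log2 difference 2.48 ± 0.45, limma, adjusted p = 0.0342, n = 3 per group). Mmp2 passed in 2 of 9 fits that left out 1 library. Over all genes 0.533% passed higher at 4 weeks. Of the 12 tested genes of the list 5 then had an unadjusted p below 0.05, edgeR called 2 and DESeq2 3. The lysosomal cathepsin Ctsb stood at 13360 ± 3833, 12943 ± 4822 and 13326 ± 4721, and Ctsl at 937 ± 272, 1715 ± 131 and 2121 ± 705.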

How the data were processed

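RNA-seq was made from 9 libraries (3 sham, 3 at 2 weeks and 3 at 4 weeks of ligation) after ribosomal RNA depletion, per the labels' protocols. The deposited values are a normalized signal: gene counts that the authors divided by 1 size factor per library. Reads were trimmed with Trim Galore 0.5.0, and HISAT2 2.1.0, StringTie 1.3.3b, DESeq2 1.22.1 and mm10 are named, per the submitters' processing notes; strand and read length were not found there.

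Whole reads were recovered from the deposited signal (100.0% of 197424 values whole within 0.001). Levels are normalized counts. Differences between groups were tested with limma 3.58.1 (R 4.3.3) on log2(normalized count + 1), with 3 group means over 9 libraries, a trended variance and 6 residual degrees of freedom, for 11809 genes with a mean of at least 10, with Benjamini-Hochberg adjustment over all of them. edgeR 4.0.16 and DESeq2 1.42.0 on the recovered reads, other pseudocounts and filters, 2-group fits, a replicate block and the omission of single libraries were alternatives. Scripts were tested on simulated data. Of 21936 gene IDs 21817 were in GENCODE M21 (GRCm38), which gave coordinates, exon lengths and coding sequences (aligned with MAFFT 7.526); promoters are RefSeq, GRCm38.p6, and Serpina3k and Serpina3m were not matched there. Replicate pairs differed by more than sampling noise (chi-square per degree of freedom 7.26 to 50.9). Replicate numbers showed no sign of pairing the libraries. Correlations of same-numbered deviations ran from −0.445 to 0.228, and those of differently numbered ones from −0.332 to 0.377. With 3 libraries per group this cannot exclude a pairing.

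Members and gene lists were chosen with earlier results of these data known. Genes named beside the members are those that passed in a list or had its lowest p, a few that stand for a role (chosen with their values known), and the 8 most like a member; T and NK, hepatocyte and other markers are given mainly as sums. A few of the genes that this rule names are not reported here.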

Additional observations from a re-analysis of the deposited data

How the results depend on the processing

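Serpina3n stood above sham in every fit and with any library left out, from 4.24 to 4.87 on the log2 scale at 2 weeks and from 4.45 to 5.18 at 4 weeks; without sham replicate 2 and 4-week replicate 1 together, chosen after seeing the data, the 4-week difference was 5.47. Genes passing at 2 weeks numbered 211 in DESeq2, 1 with only the 2 groups compared, 178 without those 2 libraries and 0 to 14 (without 4-week replicate 1) with single libraries left out. At 4 weeks they numbered 573 in DESeq2, 53 with 2 groups, 467 without both libraries and 9 (without 4-week replicate 3) to 173 with single ones left out. Between 4 and 2 weeks they numbered 76 in DESeq2, 1 with a filter at a mean of 50, 203 without both libraries and 0 to 2 with single ones left out. Members other than Serpina3n passing at 4 weeks were 1 in DESeq2 (Serpina3g; its adjusted p for Serpina3f was missing), 1 without both libraries (Serpina3f) and 0 with any single library left out. With the replicate block, which the numbering does not justify as a pairing, 84 genes passed at 4 weeks and no member's call changed.

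Serpina3k had no stable sign. At 2 weeks it was −0.61 in edgeR, −0.65 in DESeq2 and −1.32 to 1.003 with single libraries left out. At 4 weeks it was −1.59 to 0.88 with single libraries left out and 1.84 without both. Between the times it was 0.10 in edgeR (0.0968), 0.0943 in DESeq2, −0.92 to 0.84 with single libraries left out and 0.84 without both. For Serpina3m the difference between the times ran from −0.67 to 1.17 with single libraries left out. The cause of these shifts was not tested. Depth limits Serpina3c, Serpina3g and granule proteases most, sham replicate 2 above all.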

Other observations

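Serpins outside the 1 Mb around Serpina3n numbered 39 in the table, 12 of them tested, and 0 passed at either time (limma; 0.0169% and 1.2% of all tested genes passed). At an unadjusted p below 0.05 there were 0 and 1; edgeR called 0 and DESeq2 called 0 and 1. Their median log2 difference from sham was 0.12 at 2 weeks and 0.44 at 4 weeks, against 0.07 and 0.07 over all genes. Serpinb9, the intracellular inhibitor of granzyme B, had the lowest p, at 178 normalized counts in sham and 49.3 at 4 weeks (limma, adjusted p = 0.120).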
